A study of Mus musculus with 12 samples.

Results

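Conditional knockout of Klf4 was set against wild type in the epithelium of the mouse conjunctival fornix, the fold in which the inner lining of the eyelid meets that of the eyeball. Members were chosen by their labels: 3 samples labelled Klf4CN at postnatal day 14 (PN14) and 3 wild-type samples of the same age, 6 of the 12 arrays in the series. The remaining 6 arrays, 3 of wild type at PN9 and 3 of wild type at PN20, entered the fit to estimate the spread and were used to place levels in Klf4CN beside the normal course with age. Every sample came from mice of mixed background, and the epithelial layer was taken by laser capture. Each RNA was amplified in 2 cycles and hybridized to an array of its own with 45101 probe sets. The comparison asks which genes of this epithelium depend on Klf4 in the second week after birth. The labels give neither the Cre driver, the deleted part of the gene nor the animal behind each sample. The p-values rest on the spread between samples within each group, pooled over all 12 arrays. That spread may be partly technical. In the published mouse line of this name, a Cre transgene active in derivatives of the surface ectoderm of the eye (lens, cornea, conjunctiva and eyelids) deletes the floxed gene. Nothing in the sources used here ties these samples to that line.

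Klf4 encodes a zinc finger transcription factor of the Kruppel-like family, which binds GC-rich and CACCC-type sequences and is best known for promoting differentiation in barrier epithelia such as the skin and gut. The fornix is the part of the conjunctiva richest in goblet cells. These cells secrete gel-forming mucins, chiefly Muc5ac, onto the ocular surface, while the surrounding stratified cells carry membrane mucins and mucosal keratins. Mouse eyelids open at about the end of the second week after birth, when this surface first meets the air.

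The arrays differed in ways that genotype does not describe. Klf4CN replicate 3 stood apart: its 18S ribosomal RNA control probe sets averaged a deposited signal of 13683, whereas on the other 11 arrays they lay between 2221 and 6691. Over all 45101 probe sets, before any filter, that array correlated with its own replicates at Pearson's r of 0.945 and 0.939. Klf4CN replicates 1 and 2 reached 0.976 with each other, and the wild-type PN14 arrays 0.968 to 0.975. The beta-actin control's 3' signal divided by its 5' signal, a ratio that rises in degraded or shortened RNA, was 15.2, 5.40 and 17.5 on the Klf4CN arrays, against 11.1, 24.9 and 21.1 on the wild-type arrays of that age. Xist, expressed from the inactive X chromosome of females, stood at 6457, 4775 and 3742 on the Klf4CN arrays, against 4361, 5880 and 37.3 on the wild-type arrays. Wild-type replicate 3 was therefore the array with a low Xist signal, and it also carried the highest signal of the Y-linked Kdm5d among the 6 arrays, at 176. Eif2s3x, an X-linked gene that escapes inactivation, had 1848, 2215 and 1426 in Klf4CN, against 1003, 861 and 601 in wild type, a difference of 1.15 ± 0.25 on the log2 scale that did not pass (adjusted p = 0.127).

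Markers of neighbouring cell types were present in both genotypes and varied from array to array. Krt4, Krt13 and Krt19, keratins of the conjunctival surface, were Present on all 6 arrays, and so was Krt12, the keratin of the corneal epithelium. On the probe set used, Krt12 read 8492, 6032 and 1787 in Klf4CN, against 6476, 11096 and 12048 in wild type. Its lowest value there was again on Klf4CN replicate 3. By the authors' deposited rule, described below, another probe set of Krt12 passed as lower in Klf4CN. Of 13 gland markers measured, none passed in either direction, and their summed signal ranged from 20760 to 50197 in Klf4CN and from 9260 to 31704 in wild type. The upper end in Klf4CN came from replicate 3, where the glandular secretory genes Scgb1b27 and Pip reached 4878 and 6034, while on the other 5 arrays they lay between 6.73 and 30.5. The lower end in wild type came from replicate 2, where the meibomian lipid genes Far2 and Scd1 read 33.6 and 385. Muscle markers summed to between 25859 and 67351 in Klf4CN and between 26027 and 42263 in wild type, with 0 of 26 called. Lens and retina markers summed to between 3487 and 31379 in Klf4CN and between 19926 and 40788 in wild type. None of these 26 was called, but 23 were below wild type, with a median log2 change of -0.85 that became -1.38 without Klf4CN replicate 3, -0.08 without Klf4CN replicate 2, whose summed signal was the lowest, and -0.15 when the actin ratio entered the fit. By the authors' deposited rule, 3 lens genes, Cryab, Crybb2 and Crygs, passed as lower in Klf4CN. The part of these neighbouring cell types in the results below was not tested. In bulk samples such as these, fewer cells of a type and less RNA per cell cannot be told apart.

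Klf4 itself was not lower on the Klf4CN arrays. Its brighter probe set read 10918, 8832 and 7417 in Klf4CN, against 4387, 6812 and 5291 in wild type. Every Klf4CN value lay above every wild-type value, yet the difference of 0.72 ± 0.19 on the log2 scale did not pass (limma, adjusted p = 0.217). The dimmer probe set had 3942, 1876 and 872 in Klf4CN, against 703, 1537 and 880 in wild type, and there the groups overlapped (log2 difference 0.91 ± 0.46, adjusted p = 0.693 over all kept probe sets). A conditional allele can leave a shortened transcript, and the sources used here do not place these probes relative to the deleted part. The Klf4 signal therefore does not check the labels, and genotype below means the label.

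At an adjusted p under 0.05, limma called 26 of 14164 genes, or 0.184%. Of these, 11 were higher in Klf4CN (0.0777% of genes tested) and 15 were lower (0.106%). With each array scaled on all its probe sets, 3 were higher and 7 lower. At an unadjusted p under 0.05 there were 1214 genes, and the 3 Klf4CN arrays lay wholly above or below the 3 wild-type arrays for 1851 genes (13.1%), among them all 26 that were called. The median log2 change of all genes was 0.00, which the scaling to a common median sets, so changes are relative to the typical gene. The number called depended on which array was included: it was 70 without Klf4CN replicate 3, 13 and 11 without Klf4CN replicates 1 and 2, 4 without wild-type PN14 replicate 1 or 2, and 8 without wild-type PN14 replicate 3 or PN9 replicate 1. It was 17, 12 and 16 without PN20 replicates 1, 2 and 3. Muc5ac, Muc5b, Aqp5 and Krt78 passed whichever of the 12 arrays was left out. The other 22 genes passed in between 1 and 10 of those 12 fits, and their direction was the same in each.

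**Figure D1:**
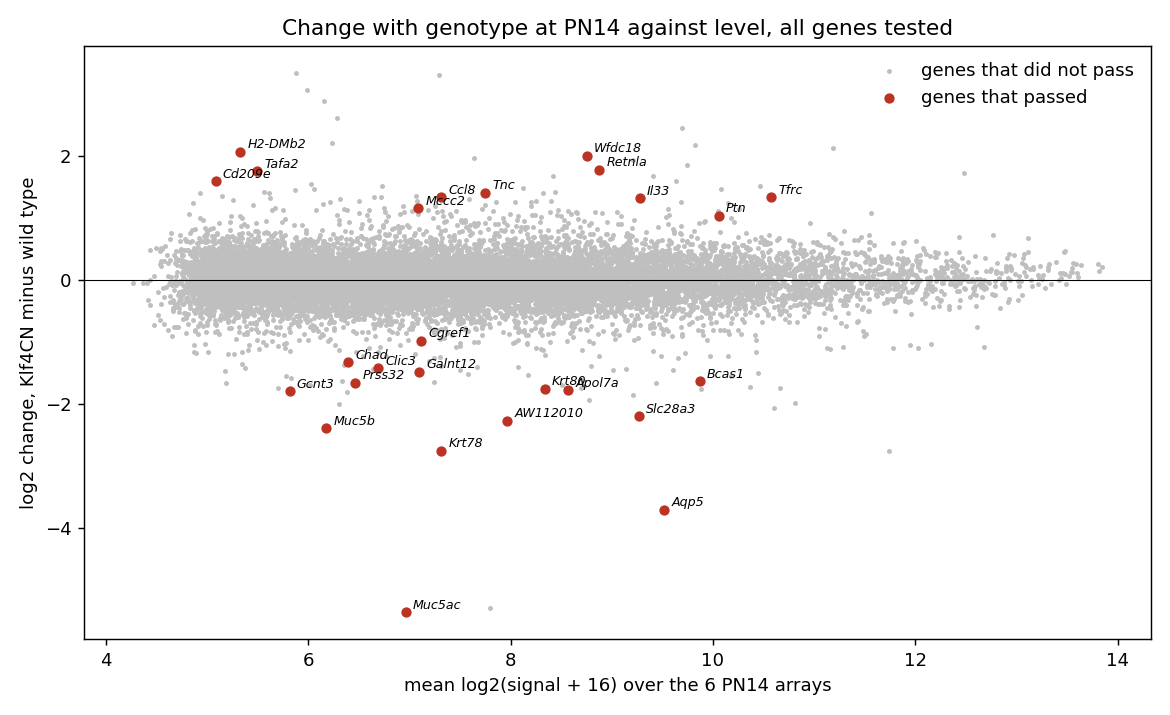
Log2 change (Klf4CN minus wild type at PN14, vertical axis) against the mean log2(signal + 16) over the 6 PN14 arrays (horizontal axis) for the 14164 genes tested. Red points are the 26 genes that passed: Muc5ac, Aqp5, Krt78 and Muc5b lie lowest, and the 11 higher genes lie above 0.

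The genes that fell were led by the secreted mucins of goblet cells. Muc5ac read 5.07, 2.05 and 3.20 in Klf4CN, against 1064, 881 and 516 in wild type, and no Klf4CN array had a Present call (a detection call in the deposited table). Measured against the dimmest reliably detected signals of the Klf4CN arrays, the level was at least 37.4-fold lower (adjusted p = 0.000577). Muc5b, the other polymeric mucin of this surface, stood at 32.7, 12.2 and 6.85 in Klf4CN, against 140, 144 and 167 in wild type. It too had no Present call in Klf4CN and was at least 5.26-fold lower (adjusted p = 0.00208). Both genes lie on chromosome 7.

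A pair of enzymes of mucin glycosylation and a further gene of the goblet cell list fell too. Gcnt3, which branches O-linked chains, had 11.1, 16.2 and 15.5 in Klf4CN, against 125, 81.3 and 68.2 in wild type, a log2 change of -1.80 ± 0.28 (adjusted p = 0.0285). Galnt12, which attaches the first sugar to mucin protein, had 55.5, 84.8 and 60.2 in Klf4CN, against 195, 232 and 212 in wild type (-1.48 ± 0.26, adjusted p = 0.0357). The groups were well separated for both. Bcas1, a cytoplasmic protein known mainly from myelinating cells and included in the goblet cell list, had 718, 593 and 318 in Klf4CN, against 1255, 2099 and 1657 in wild type (-1.64 ± 0.27, adjusted p = 0.0304).

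Of the 32 genes on the goblet cell list, 22 passed the filter on low signals. Those 5 were its calls and 0 were called higher. Of the 22, 21 lay below wild type with a median log2 change of -0.60, while the median of all genes was 0.00. The groups did not overlap in the lower direction for 10 of the 22, against 6.60% of all genes tested. This list, like the others here, was written with earlier results on the wild-type ages of these data known. Such shares describe a list and do not test it. Several regulators and secretory factors lay lower without passing. Spdef, a transcription factor required for goblet cell differentiation, had 33.8, 50.7 and 26.4 in Klf4CN, against 91.8, 106 and 65.9 in wild type (log2 difference -0.98 ± 0.22, adjusted p = 0.158). Agr2, a disulfide isomerase of the secretory pathway on which intestinal mucin depends, had 121, 210 and 129 in Klf4CN, against 546, 341 and 405 in wild type (-1.41 ± 0.33, adjusted p = 0.165). Ern2, a stress sensor of mucous cells, had 21.1, 6.60 and 1.10 in Klf4CN, against 43.7, 37.8 and 38.0 in wild type (adjusted p = 0.280). For these 3 genes the arrays of the genotypes did not overlap. Tff1, a trefoil peptide secreted with mucins, overlapped between genotypes, with 105, 123 and 176 in Klf4CN and 224, 172 and 182 in wild type. Without Klf4CN replicate 3, the goblet cell list again had 5 members called lower and 0 called higher. In that fit 17 of the 22 lay below wild type and 5 above, with a median of -0.65. Over the 6 fits that left out a PN14 array, the list's median ran from -0.88 to -0.56.

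**Figure D2:**
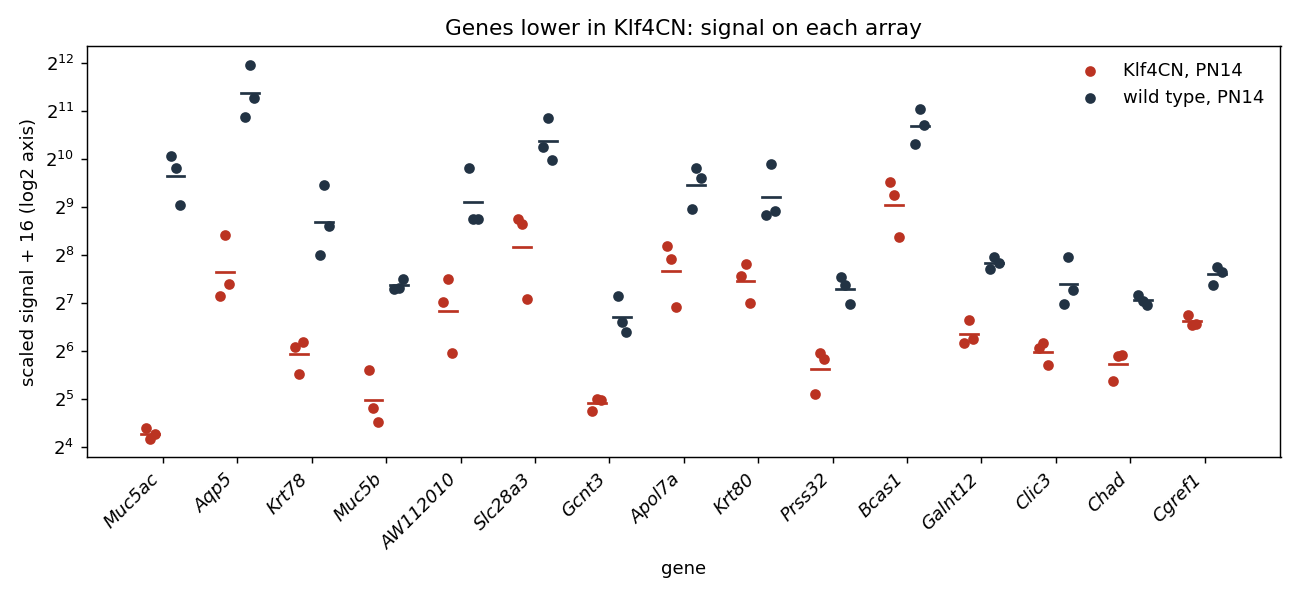
Signal + 16 on a log2 axis for the 15 genes that were lower in Klf4CN, with red points for the 3 Klf4CN arrays at left and dark points for the 3 wild-type PN14 arrays at right of each gene. Bars are geometric means, and for each gene the red points lie below the dark ones.

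Among transport genes 3 fell. Aqp5, the water channel of secretory glands and the ocular surface, read 126, 327 and 154 in Klf4CN, against 1859, 3999 and 2477 in wild type. It was 13.2-fold lower, a log2 change of -3.72 ± 0.37 (adjusted p = 0.000688). Slc28a3, a concentrative nucleoside transporter, had 418, 388 and 121 in Klf4CN, against 1212, 1840 and 1001 in wild type (-2.20 ± 0.40, adjusted p = 0.0459). Clic3, of the chloride intracellular channel family, had 51.1, 55.5 and 36.4 in Klf4CN, against 111, 232 and 139 in wild type (-1.43 ± 0.26, adjusted p = 0.0459). Its adjusted p was 0.0642 without Klf4CN replicate 3. As each of the 12 arrays was left out in turn, Clic3 passed in 1 fit. Aqp5, Slc28a3 and Clic3 were the 3 calls among 32 ion and water transport genes measured, with 0 higher. The list as a whole was spread around its median log2 change of -0.10, with 12 members above 0 and 20 below. Without Klf4CN replicate 3 that median was 0.10, with 18 members above 0 and 14 below, and 2 members were called lower. Slc5a1, a sodium and glucose cotransporter, had 513, 330 and 148 in Klf4CN, against 704, 1948 and 1004 in wild type, separate but not called (-1.86 ± 0.40, adjusted p = 0.111). Car2, a carbonic anhydrase that interconverts carbon dioxide and bicarbonate, went the other way, with 367, 312 and 228 in Klf4CN, against 183, 93.9 and 154 in wild type (1.01 ± 0.30, adjusted p = 0.291).

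A pair of type II keratins fell. Krt78 had 52.2, 29.7 and 57.2 in Klf4CN, against 242, 689 and 374 in wild type, and was 6.78-fold lower (-2.76 ± 0.31, adjusted p = 0.00194). Krt80, which is associated with desmosomes in differentiating epithelia, had 172, 209 and 112 in Klf4CN, against 443, 934 and 465 in wild type (-1.76 ± 0.28, adjusted p = 0.0285). They were the 2 calls among 11 simple and mucosal keratins, 8 of which lay below wild type with a median log2 change of -0.27, or 0.00 without Klf4CN replicate 3. The abundant keratins of this epithelium overlapped between genotypes. Krt4 had 6141, 4387 and 5674 in Klf4CN, against 5621, 9032 and 7252 in wild type, and Krt19 had 4837, 5851 and 1996 in Klf4CN, against 4485, 6400 and 4288 in wild type. Krt13, a mucosal partner of Krt4, did separate, with 916, 958 and 328 in Klf4CN, against 1559, 3002 and 1613 in wild type, but was not called (-1.54 ± 0.49, adjusted p = 0.353). Among 7 basal and wound keratins, Krt17, induced in injured epithelium, had 421, 431 and 185 in Klf4CN, against 151, 183 and 149 in wild type (0.95 ± 0.29, adjusted p = 0.329). It passed without Klf4CN replicate 3, at a log2 change of 1.33 ± 0.22 (adjusted p = 0.0249).

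The lists of membrane mucin and of corneal epithelial genes gave 0 calls with all arrays. Muc4 had 1265, 4279 and 402 in Klf4CN, against 7800, 10851 and 8358 in wild type, a log2 difference of -2.76 ± 0.65 (adjusted p = 0.161). Muc16 had 34.7, 50.0 and 22.8 in Klf4CN, against 142, 129 and 82.1 in wild type (-1.37 ± 0.30, adjusted p = 0.127). Both are large mucins anchored in the cell membrane, and on these probe sets neither overlapped between genotypes. A dimmer probe set for Muc4 did overlap, with 278, 486 and 111 in Klf4CN, against 516, 620 and 399 in wild type (-0.97 ± 0.38). Muc1, a further member, did overlap, with 1278, 1867 and 802 in Klf4CN and 965, 1493 and 1125 in wild type. Of the 16 membrane mucin and glycocalyx genes measured, 7 lay above wild type and 9 below. Their median log2 change was -0.11, or -0.39 without Klf4CN replicate 2, and it turned to 0.10 without Klf4CN replicate 3; Muc13 was then called higher. Lypd2, a secreted or anchored Ly6-family protein, had 2.90, 115 and 1.92 in Klf4CN, against 717, 2820 and 1307 in wild type. With no Present call in Klf4CN the difference was at least 35.6-fold, but the spread within Klf4CN was wide and the adjusted p was 0.0619. Upk1b, a uroplakin of the surface membrane, had 1330, 1348 and 385 in Klf4CN, against 2570, 4838 and 3638 in wild type (-1.99 ± 0.42, adjusted p = 0.113). Of 14 corneal epithelial genes, 10 lay below wild type with a median of -0.51. It was -0.85 without Klf4CN replicate 2 and -0.05 without Klf4CN replicate 3, the array on which Krt12 was lowest, when 1 of the 14 was called higher.

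A further 5 genes fell. Prss32, a serine protease, had 18.4, 46.6 and 41.0 in Klf4CN, against 170, 150 and 110 in wild type (-1.66 ± 0.27, adjusted p = 0.0296). Apol7a, of the apolipoprotein L family, had 278, 225 and 106 in Klf4CN, against 486, 884 and 759 in wild type (-1.78 ± 0.30, adjusted p = 0.0304). AW112010, a transcript first annotated as noncoding and known from immune cells, had 114, 165 and 46.2 in Klf4CN, against 882, 419 and 413 in wild type (-2.28 ± 0.36, adjusted p = 0.0285). Each of these genes was lower on all 3 Klf4CN arrays than on any wild-type array of the same age. Chad, a leucine-rich repeat protein of the extracellular matrix, had 25.8, 43.3 and 44.4 in Klf4CN, against 128, 116 and 109 in wild type (-1.33 ± 0.21, adjusted p = 0.0285). Cgref1, a calcium-binding growth regulator, had 91.7, 77.8 and 78.7 in Klf4CN, against 151, 201 and 186 in wild type (-0.98 ± 0.18, adjusted p = 0.0477). Its adjusted p was 0.0561 without Klf4CN replicate 3. As each of the 12 arrays was left out in turn, Cgref1 passed in 1 fit.

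Among the genes that rose, 3 belong to immune signalling. Il33, an alarm cytokine held in the nuclei of epithelial and stromal cells, had 1025, 1379 and 639 in Klf4CN, against 419, 362 and 351 in wild type, a log2 change of 1.33 ± 0.24 (adjusted p = 0.0453). Ccl8, a chemokine for monocytes and other leukocytes, had 155, 315 and 272 in Klf4CN, against 87.7, 87.9 and 76.6 in wild type (1.34 ± 0.25, adjusted p = 0.0459, or 0.0646 without Klf4CN replicate 3). Retnla, a resistin-like protein of type 2 immune responses, had 666, 1167 and 807 in Klf4CN, against 289, 153 and 299 in wild type (1.79 ± 0.33, adjusted p = 0.0459). All Klf4CN values of the 3 genes lay above all wild-type values. These were the 3 calls among 43 chemokine, cytokine and inflammatory genes, with 0 lower. As each of the 12 arrays was left out in turn, Il33 and Ccl8 passed in 1 fit each and Retnla in 3. Of the 43, 28 lay above wild type, with a median log2 change of 0.17, or 0.32 without Klf4CN replicate 3, when 4 were called higher. Ccl6, a chemokine of myeloid cells, had 555, 703 and 325 in Klf4CN, against 205, 185 and 154 in wild type (1.41 ± 0.30, adjusted p = 0.111).

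A gene of antigen presentation, a lectin and a small secreted protein were also called higher. H2-DMb2, a chain of the complex that loads peptides onto class II molecules, read 48.2, 78.4 and 76.5 in Klf4CN, against 3.85, 2.17 and 4.58 in wild type. It passed (adjusted p = 0.0293), but neither genotype had a Present call, so no fold is given. Another probe set for the gene was also separate, with 37.2, 56.6 and 99.5 in Klf4CN, against 19.5, 4.66 and 23.8 in wild type. It was the 1 call among 11 class II antigen presentation genes, and all 11 lay above wild type with a median log2 change of 0.43. The groups did not overlap for 4 of the 11, against 6.47% of genes tested in that direction. H2-Ab1, the beta chain of I-A, had 346, 493 and 403 in Klf4CN, against 193, 157 and 222 in wild type (1.05 ± 0.26, adjusted p = 0.196). H2-Eb1, the beta chain of I-E, had 392, 537 and 350 in Klf4CN, against 262, 131 and 209 in wild type (1.06 ± 0.27, adjusted p = 0.212). Both kept the groups apart without passing. The list's median ran from 0.20 to 0.67 as each PN14 array was left out in turn, and was 0.19 when the actin ratio entered the fit. Cd209e, a C-type lectin related to the dendritic cell receptor DC-SIGN, had 36.5, 64.9 and 32.3 in Klf4CN, against 1.72, 1.45 and 7.92 in wild type, where it had no Present call. It was at least 2.74-fold higher (adjusted p = 0.0459). Wfdc18, a small secreted protein of the whey acidic protein family, had 773, 884 and 893 in Klf4CN, against 152, 251 and 206 in wild type (2.01 ± 0.31, adjusted p = 0.0285), the 1 call among 38 innate receptor and antimicrobial genes. Of the 38, 22 lay above wild type and 16 below, with a median log2 change of 0.02.

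Leukocyte markers were measured beside these genes. Of 21 myeloid and mast cell markers 15 lay above wild type, 0 were called, and their summed signal ran from 5082 to 7792 in Klf4CN and from 4661 to 5771 in wild type. Of 9 lymphocyte markers 8 lay above wild type, 0 were called, and sums ran from 491 to 1142 in Klf4CN and from 455 to 563 in wild type. In both lists 2 markers had no Present call on any of the 6 arrays. Ptprc, the common leukocyte antigen, had 586, 943 and 233 in Klf4CN, against 359, 287 and 261 in wild type, and was called without Klf4CN replicate 3 (adjusted p = 0.0374). Adgre1, the macrophage marker F4/80, had 192, 221 and 180 in Klf4CN, against 156, 136 and 124 in wild type (0.46 ± 0.19, adjusted p = 0.507). Their part in the immune genes was not tested.

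**Figure D3:**
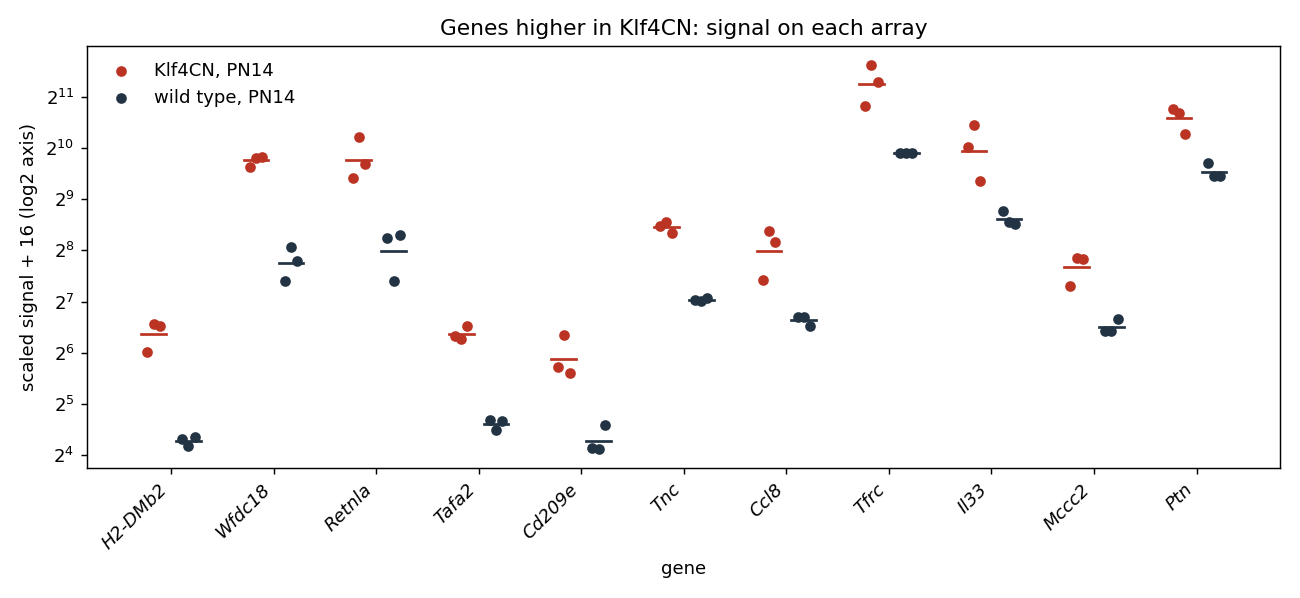
Signal + 16 on a log2 axis for the 11 genes that were higher in Klf4CN, with red points for the 3 Klf4CN arrays at left and dark points for the 3 wild-type PN14 arrays at right of each gene. Bars are geometric means; H2-DMb2, Tafa2 and Cd209e are near the bottom of the signal range in wild type.

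The other genes that rose have varied roles. Tnc, the matrix glycoprotein tenascin C, had 342, 358 and 308 in Klf4CN, against 115, 113 and 118 in wild type, with little spread within either genotype (1.42 ± 0.24, adjusted p = 0.0304). Ptn, the heparin-binding growth factor pleiotrophin, had 1730, 1637 and 1217 in Klf4CN, against 818, 687 and 682 in wild type (1.04 ± 0.18, adjusted p = 0.0323). Tfrc, the transferrin receptor through which cells take up iron, had 1792, 3127 and 2489 in Klf4CN, against 944, 941 and 938 in wild type (1.34 ± 0.22, adjusted p = 0.0285). Its wild-type arrays were nearly equal, so the spread lay in Klf4CN. Mccc2, a subunit of an enzyme of leucine breakdown, had 142, 215 and 213 in Klf4CN, against 69.4, 70.0 and 85.7 in wild type (1.16 ± 0.20, adjusted p = 0.0304). Tafa2, a secreted chemokine-like protein known from the nervous system, had 64.2, 61.1 and 76.1 in Klf4CN, against 9.61, 6.52 and 9.45 in wild type (1.76 ± 0.24, adjusted p = 0.0114), and was Present on 1 of the 3 wild-type arrays. Of the 26 called genes, 8 had other kept probe sets, 11 in all, of which 10 had a difference of the same sign and 4 also kept the genotypes apart. The exception in sign was a dim probe set of Ptn, with means of 35.3 in Klf4CN and 40.3 in wild type. Other probe sets of Bcas1, Mccc2 and Tnc, each dimmer than the one used, overlapped between genotypes. Among genes named here but not called, dimmer probe sets of Dclk1, Eif2s3x, Klf6, Plec and Upk1b overlapped as well. The sign was opposite for Klf6, Plec and a Dclk1 probe set without a Present call in either genotype. Other dimmer probe sets of Dclk1 kept the genotypes apart. By the authors' deposited rule, described below, other probe sets of Eif2s3x and Klf6 passed as higher, and others of Upk1b as lower.

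Some genes lay just outside the threshold. Cebpb, a transcription factor of stress and inflammation, had 482, 474 and 585 in Klf4CN, against 163, 160 and 308 in wild type (1.28 ± 0.24, adjusted p = 0.0511). Avil, an actin-binding protein found in tuft cells, had 15.6, 18.8 and 26.2 in Klf4CN, with no Present call, against 117, 126 and 67.4 in wild type, at least 3.24-fold lower in Klf4CN (adjusted p = 0.0511). Both had groups that did not overlap. The 10 tuft cell genes measured divided into 5 above and 5 below wild type, with a median log2 change of 0.00 and 0 called. Dclk1, a kinase used as a tuft cell marker, lay apart the other way on the probe set used. It read 365, 286 and 378 in Klf4CN, against 266, 200 and 210 in wild type (0.57 ± 0.29, adjusted p = 0.623). Ppbp, a platelet chemokine, had 164, 343 and 50.6 in Klf4CN, against 16.1 to 23.3 in wild type (2.22 ± 0.47, adjusted p = 0.111). Among 19 Kruppel-like factors measured, none was called and 15 lay above wild type with a median log2 change of 0.16. Klf6 was the clearest of these, with 1850, 1812 and 1292 in Klf4CN, against 859, 769 and 780 in wild type (1.01 ± 0.24, adjusted p = 0.167). Klf5, a relative also expressed in ocular surface epithelium, overlapped, with 1066, 1668 and 468 in Klf4CN and 656, 1040 and 584 in wild type.

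The remaining gene lists gave 0 calls. Of 22 desmosome and hemidesmosome genes 20 lay below wild type, with a median log2 change of -0.25 that was -0.04 without Klf4CN replicate 3. Plec, the plectin that anchors keratin filaments at hemidesmosomes, had 1012, 875 and 828 in Klf4CN, against 1287, 1947 and 1611 in wild type (-0.81 ± 0.20, adjusted p = 0.203). Interferon response genes had a median of 0.15 over 45 genes, which was 0.51 without Klf4CN replicate 3 and -0.14 without Klf4CN replicate 1. The median of tight and adherens junction genes was -0.36 without Klf4CN replicate 2 and 0.26 without Klf4CN replicate 3. Immediate early genes had a median of 0.36 over 18 genes, which was 0.21 without Klf4CN replicate 1 and 0.62 without Klf4CN replicate 2. Cholesterol and fatty acid synthesis genes had 0.29 over 43, which was 0.07 without wild-type PN14 replicate 2 and 0.53 without wild-type PN14 replicate 3. Cell cycle genes had 0.02 over 69 and ran from -0.06 to 0.16 as each PN14 array was left out. Cornification and epidermal genes had 0.06 over 35, with Csta1, a cysteine protease inhibitor of the cornified envelope, at 334, 313 and 253 in Klf4CN, against 526, 1388 and 804 in wild type (-1.44 ± 0.31, adjusted p = 0.118). Notch, Wnt, TGF-beta and BMP, retinoid, glutathione, complement, circadian, ribosomal protein and respiratory chain lists had medians between -0.12 and 0.06.

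**Figure D4:**
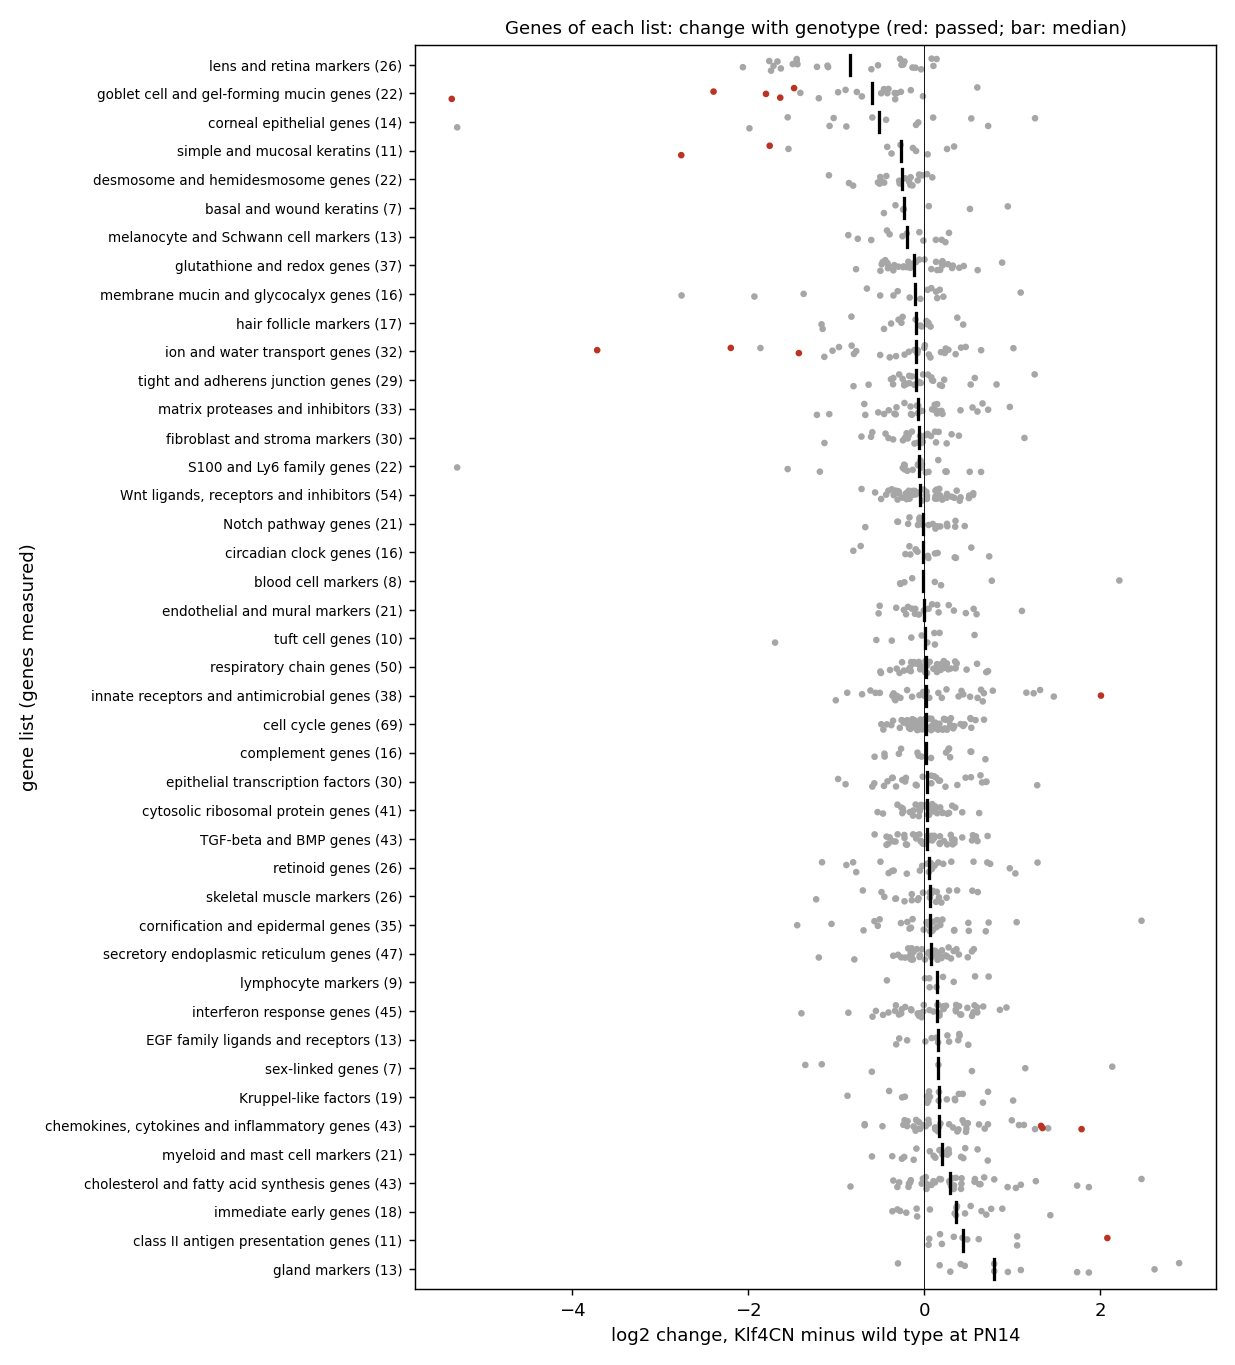
Log2 change (Klf4CN minus wild type at PN14, horizontal axis) of every measured gene in the 43 lists, sorted by the list's median (black bar), with the number of genes measured in parentheses. Red points are genes that passed; lens and retina, goblet cell and corneal lists have the lowest medians, and gland markers and class II genes the highest.

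Most genes that were lower in Klf4CN are ones that normally increase at these ages. From PN9 to PN20 in wild type, 13 of the 15 genes rose and 1 fell, whereas 13.5% of all genes tested rose and 10.8% fell. The means of this comparison come from arrays other than those of the genotype comparison, but both used 1 estimate of spread over all 12 arrays. The exceptions were Cgref1, which fell by 0.63 on the log2 scale (adjusted p = 0.0221), and Clic3, which did not pass (0.20, adjusted p = 0.619). Of the 11 genes that were higher in Klf4CN, 3 rose with age and 0 fell: Il33, Tfrc and Retnla. Levels of the lower genes in Klf4CN at PN14 can be set beside each wild-type age, although these comparisons share the Klf4CN arrays. Muc5ac averaged 3.44 ± 1.53 in Klf4CN, against 110 ± 96.1 at PN9, 820 ± 279 at PN14 and 3054 ± 741 at PN20 in wild type (SD, n = 3 each). It was thus below the youngest wild type too (adjusted p = 0.00895), although it was Present on only 1 of the 3 PN9 arrays and on no Klf4CN array. Aqp5 averaged 202 ± 109 in Klf4CN, against 192 ± 89.3 at PN9, 2778 ± 1101 at PN14 and 2456 ± 479 at PN20. Gcnt3 averaged 14.3 ± 2.77 in Klf4CN, against 13.1 ± 10.1 at PN9, 91.6 ± 29.8 at PN14 and 425 ± 102 at PN20. For Aqp5 and Gcnt3 the difference from PN9 did not pass, with log2 differences of 0.05 ± 0.37 and 0.11 ± 0.28. Apol7a lay between the ages, at 203 ± 88.2 in Klf4CN, against 73.1 ± 7.01 at PN9, 710 ± 204 at PN14 and 896 ± 143 at PN20, and was above PN9 (1.20, adjusted p = 0.0156).

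The genes that were higher in Klf4CN did not follow 1 course. Il33 averaged 1014 ± 370 in Klf4CN, against 175 ± 4.93 at PN9, 377 ± 36.6 at PN14 and 1038 ± 130 at PN20 in wild type, so its PN14 level in Klf4CN was near that of wild type at PN20 (log2 difference -0.09, adjusted p = 0.885). Retnla averaged 880 ± 258 in Klf4CN, against 78.9 ± 20.0 at PN9, 247 ± 81.6 at PN14 and 187 ± 86.7 at PN20, above every wild-type age (log2 difference 3.22 from PN9, adjusted p = 0.000296, and 2.19 from PN20, adjusted p = 0.00337). Tnc, at 336 ± 25.7 in Klf4CN, was likewise above PN9 at 190 ± 74.1, PN14 at 115 ± 2.07 and PN20 at 128 ± 30.1 (adjusted p = 0.0293 against PN9 and 0.0118 against PN20). Ptn was at 1528 ± 273 in Klf4CN, and its wild-type levels were 1739 ± 89.1 at PN9, 729 ± 77.5 at PN14 and 1255 ± 110 at PN20, so the PN14 wild type was the lowest of the 4 groups. Mccc2 had the same shape, with 190 ± 41.4 in Klf4CN, against 145 ± 18.8 at PN9, 75.0 ± 9.25 at PN14 and 201 ± 18.2 at PN20.

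**Figure D5:**
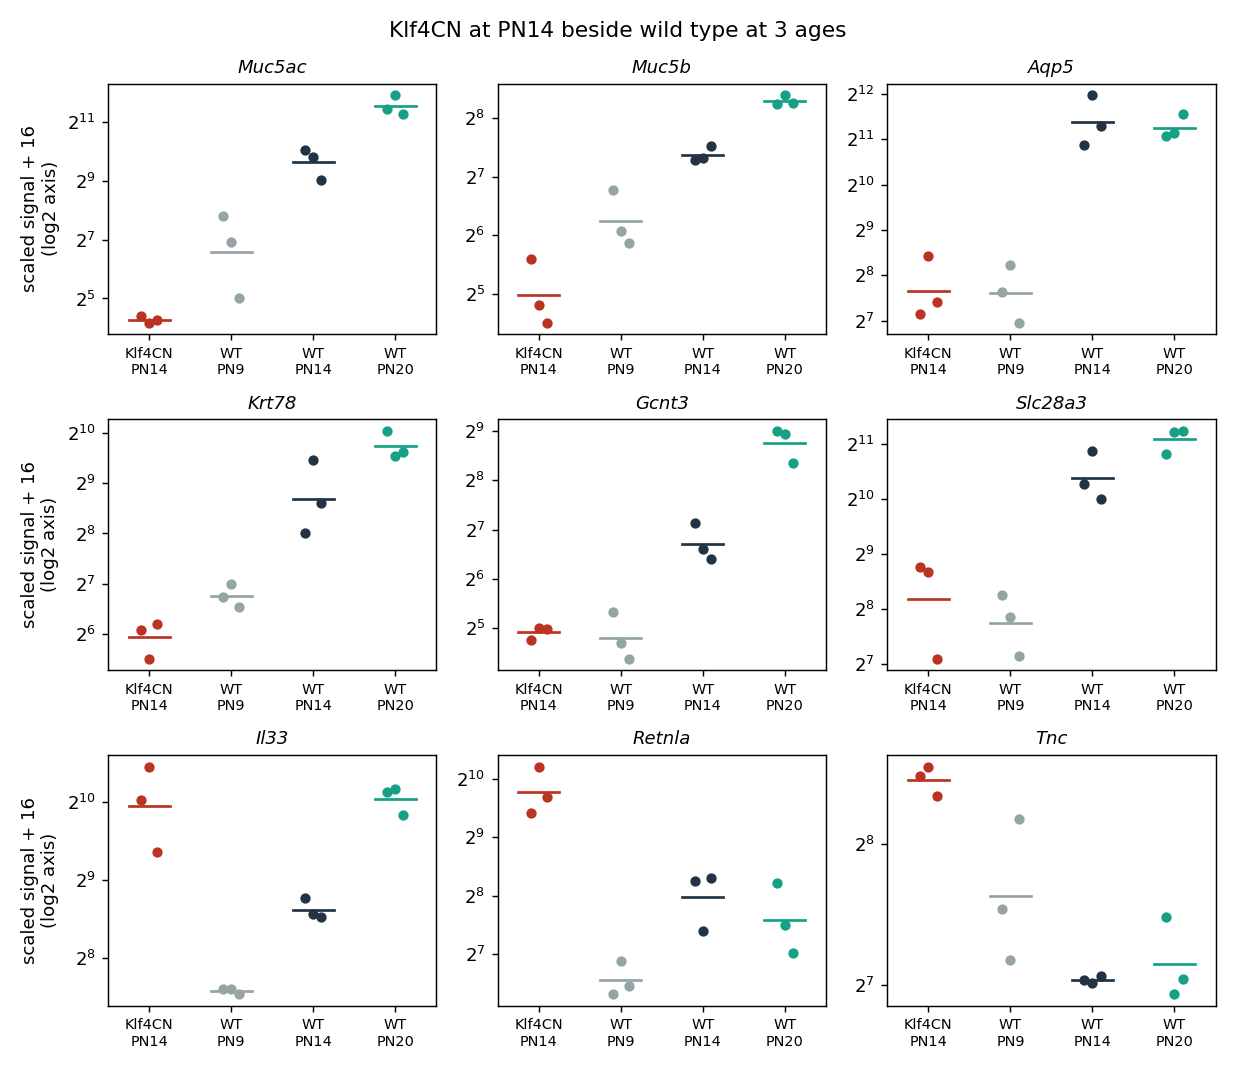
Signal + 16 on a log2 axis for 9 genes in Klf4CN at PN14 (red, left) and in wild type at PN9, PN14 and PN20, with 1 point per array and bars at geometric means. Muc5ac in Klf4CN lies below all wild-type ages, Aqp5 and Gcnt3 lie near PN9, Il33 lies near PN20, and Retnla and Tnc lie above every age.

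The authors' deposited table marks, by a rule of its own, the probe sets that differ between these genotypes. That rule asks for a Present call on each of the 3 arrays with higher signal, no overlap between genotypes, a ratio of means above 2 and a sum beyond 5 over the 9 pairwise comparisons of arrays. In the authors' deposited table, 223 of 45101 probe sets passed, 122 higher in Klf4CN (0.271%) and 101 lower (0.224%), which carry the names of 102 and 85 genes. Of the 26 genes called by limma, 25 were among these 187 genes, or 96.2% of the limma genes and 13.4% of the 187; the exception was H2-DMb2, which lacks Present calls. Both rules read the same 6 arrays, so this overlap follows from shared data. Of the 187 genes, 184 were tested by limma and 146 had an unadjusted p under 0.05. In the authors' deposited table, 6 goblet cell genes, 3 membrane mucins (Muc4, Muc16 and Muc20), 3 mucosal keratins (Krt13, Krt78 and Krt80) and 5 transport genes passed as lower. By the same rule 1 transport gene passed as higher, and 0 in the lists of goblet cell genes, membrane mucins and mucosal keratins. Also higher by that rule were 4 inflammatory genes and the class II genes H2-Ab1 and H2-Eb1. Of its 223 probe sets, 111 passed in the comparison of genotype alone, and 112 also passed between wild-type ages.

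Promoter sequence is shown for 4 called genes to set out the letters that Kruppel-like factors are known to read. For each, the 250 bases before the annotated start are given from RefSeq (GRCm38.p6), 5′ to 3′ on the strand of the gene, with capitals marking GGGTG or its reverse complement CACCC. Aqp5 (chr15:99590778-99591027, plus strand) and Krt78 (chr15:101954288-101954537, minus strand) are the most reliable lower genes with an entry in the table. Clic3 (chr2:25456593-25456842, plus strand) and Retnla (chr16:48842359-48842608, plus strand) are a lower and a higher gene that hold the longer form GGGTGTG or CACACCC.
Aqp5: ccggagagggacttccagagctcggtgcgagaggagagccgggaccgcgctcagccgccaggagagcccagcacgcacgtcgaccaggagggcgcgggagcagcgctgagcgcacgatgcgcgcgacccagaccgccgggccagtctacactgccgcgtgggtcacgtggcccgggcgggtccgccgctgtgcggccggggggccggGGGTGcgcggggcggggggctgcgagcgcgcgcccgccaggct
Krt78: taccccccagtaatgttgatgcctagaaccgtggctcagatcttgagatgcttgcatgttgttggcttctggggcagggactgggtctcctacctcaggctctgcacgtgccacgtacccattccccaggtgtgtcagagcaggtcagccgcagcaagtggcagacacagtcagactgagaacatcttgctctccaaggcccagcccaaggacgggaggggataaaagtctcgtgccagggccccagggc
Clic3: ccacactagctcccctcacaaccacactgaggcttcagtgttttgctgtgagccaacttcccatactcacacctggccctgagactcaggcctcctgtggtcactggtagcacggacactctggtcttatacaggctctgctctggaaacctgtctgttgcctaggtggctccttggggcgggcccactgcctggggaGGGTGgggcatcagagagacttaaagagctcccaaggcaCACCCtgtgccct
Retnla: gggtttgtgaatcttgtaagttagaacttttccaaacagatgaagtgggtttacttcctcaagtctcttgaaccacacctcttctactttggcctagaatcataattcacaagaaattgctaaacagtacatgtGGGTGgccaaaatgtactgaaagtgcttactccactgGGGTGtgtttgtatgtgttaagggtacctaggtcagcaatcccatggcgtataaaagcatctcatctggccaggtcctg
Aqp5 holds 1 such match, Krt78 holds 0, and Clic3 and Retnla hold 2 each. Of the 15 lower genes 9 had an entry in the table, and 5 of the 9 held GGGTG or CACCC before at least 1 of their starts; of the 11 higher genes 11 had an entry and 7 held it. It was held by 52.0% of all 32851 promoters listed. The longer form stood in 1 of the 9 and 2 of the 11, and in 6.93% of all promoters; it contains the shorter one, so the counts overlap. Genes with several annotated starts had more than 1 chance to match. Muc5ac, Muc5b, Gcnt3, Galnt12, Bcas1 and Krt80 are among the genes that fell, but no promoter sequence was at hand for them. Their promoters were therefore not searched for these letters. A match is a description of these letters alone, and no binding was measured here.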

How the data were processed

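RNA of laser-captured fornix epithelium was amplified in 2 cycles from 20 to 120 ng, per the labels' protocols. The deposited intensities come from GCOS 1.4, used by the authors to give linear signals with a 2% trimmed mean of 150 on each array, per the file headers; the files' own trimmed means came to 150. The deposited scores, Present calls per group and sums of 9 pairwise comparisons, were made by the authors, per the file headers. The 2 deposited tables of intensities were identical (largest difference 0).

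A probe set was kept when above the 40th percentile of its array on at least 3 arrays, which left 30657. Of these, 2299 were Present on no array. Arrays were scaled to a common median of kept probe sets (deposited medians 71.0 to 92.2), and values were taken as log2(signal + 16), which understates changes of dim genes. Of all probe sets 34958 had 1 gene symbol, 932 several and 9211 none, and the last 2 kinds were left out. For each of 14164 genes, the brightest kept probe set (by mean) was used. The genotypes were tested with limma 3.58.1 (R 4.3.3), with 1 mean per group over 12 arrays and a moderated variance with trend (8 residual, 6.04 prior degrees of freedom). P-values were adjusted by Benjamini-Hochberg over all genes, with a threshold of 0.05. Errors after ± on the log2 scale are limma's standard errors. Signals in the text are scaled. Where the dimmer genotype had no Present call, its arrays were raised to their dimmest signal of any probe set called Present throughout that genotype, and the fold is given as "at least".

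The fit was tested on simulated data. The members and the 43 gene lists were chosen with earlier results of these data known. Named genes are those called, the genes of smallest p in lists without a call, and Klf4, by a rule that left out clone names; other list members were named after their values were seen. Alternatives covered offset, scaling, filter, probe set choice, variance model, array weights, samples fitted, actin covariate, replicate block, minimum fold, threshold and leaving out each array. The number of arrays limits the precision.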

Additional observations from a re-analysis of the deposited data

How the results depend on the processing

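Counts of called genes moved widely. None of the 99 genes named by the rule above changed sign in any alternative run. That check did not cover the list members named after their values were seen. The total (higher and lower in Klf4CN) was 10 (3 and 7) with each array scaled on all its probe sets, 15 (6 and 9) with every probe set tested, 455 (269 and 186) with array weights, 6 (3 and 3) with only the PN14 arrays, 5 (0 and 5) with the actin ratio in the fit and 4 (0 and 4) with a minimum fold of 1.5. Higher genes numbered 5 with an offset of 1 or the mean of probe sets and 7 without the filter or without a variance trend. Leaving out 1 array gave totals of 4 to 70, with 0 to 53 higher and 4 to 17 lower. After the data were seen, the fit was repeated without the PN9 arrays, giving 13 (5 and 8), and without the PN14 arrays of highest 18S signal, giving 20 (11 and 9). With the actin covariate 1011 genes had an unadjusted p under 0.05. The change of Klf4 was 0.95 (adjusted p = 0.00515) with array weights, which gave Klf4CN replicate 1 a weight of 4.81 and replicate 3 a weight of 0.225. With the replicate block, 28 genes were called (11 and 17), 22 of them shared with the 26. Same-numbered samples deviated with correlations of -0.22, 0.11 and 0.26, so the numbers were not taken as pairs. Of 1333 list medians recomputed, 47 moved by over the spread between replicates. Signals near background limit the values of Muc5ac, Muc5b, Gcnt3, Cd209e, H2-DMb2 and Tafa2.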

Other observations

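Without Klf4CN replicate 3, limma called 70 genes, of which 23 were among the 26 called with all arrays, and the 47 others divided into 43 higher and 4 lower. The genes named here were chosen after their values were seen. For 47 of the 53 higher genes in that fit, the signal on the array left out was the lowest of the 3 Klf4CN arrays. Leaving out an array favours calls of higher genes that were low on it. This count therefore partly follows from how the genes were selected. Il1rn, the interleukin 1 receptor antagonist, read 470, 753 and 165 in Klf4CN, against 185, 145 and 137 in wild type, a log2 change of 1.84 ± 0.25 without replicate 3 (adjusted p = 0.00550) and an adjusted p of 0.331 with it. Alox15, a lipoxygenase of macrophages and epithelia, had 505, 647 and 164 in Klf4CN, against 183, 40.4 and 74.4 in wild type (2.55 ± 0.44, adjusted p = 0.0250 without replicate 3). Alox12e, an epidermal lipoxygenase, had 5566, 6445 and 1277 in Klf4CN, against 1765, 2463 and 2433 in wild type. Its value on that array lay below all wild-type values, and the adjusted p was 0.00713 without that array and 0.693 with it.

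Of the 43 further higher genes, 7 were in any of the 43 gene lists. H2-K1, a class I heavy chain, had 3100, 3883 and 950 in Klf4CN, against 1473, 1546 and 1472 in wild type (1.20 ± 0.19, adjusted p = 0.0157 without replicate 3). B2m, its light chain, had 2483, 3617 and 1136 in Klf4CN, against 1760, 1259 and 1235 in wild type (1.09 ± 0.22, adjusted p = 0.0453). On replicates 1 and 2 both were above wild type, and on replicate 3 both were below it. Il7r, a cytokine receptor of lymphocytes, had 127, 173 and 75.9 in Klf4CN, against 61.9, 59.9 and 40.6 in wild type (adjusted p = 0.0382). Vcam1, an adhesion molecule that captures leukocytes, had 303, 445 and 235 in Klf4CN, against 201, 99.2 and 129 in wild type (adjusted p = 0.0435). Muc13, a membrane mucin best known from the gut, had 175, 186 and 87.5 in Klf4CN, against 45.6, 56.1 and 76.0 in wild type (adjusted p = 0.0333), in the direction opposite to Muc4 and Muc16. Add2 and Npr2, 2 of the 4 genes that were lower in that fit and not called with all arrays, had their highest Klf4CN signal on replicate 3, at 114 and 201.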
